A study of Homo sapiens with 8 samples.

Results

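The genes described here are NOX4 and 9 genes that partner it or handle its products: CYBA, the superoxide dismutases SOD1, SOD2 and SOD3, catalase (CAT), the glutathione peroxidases GPX1, GPX3 and GPX4, and the mitochondrial peroxiredoxin PRDX3. They were chosen by name, for their role in making or removing superoxide and hydrogen peroxide, with earlier results of these data known. They are 10 of the 60666 gene IDs in the deposited count table. All 10 were found, and 9 of them were among the 13493 genes abundant enough to test (a mean over the libraries of at least 1 CPM, the count scaled to a common library total), and CYBA was not. Bulk RNA sequencing covered MRC5 cells, a fibroblast line from human lung, in 4 groups with 2 libraries in each. One line, shMock, expressed a hairpin that serves as control, and the other, shMTHFD2, a hairpin that targets MTHFD2, a mitochondrial enzyme of one-carbon metabolism that also makes NADPH or NADH. Each line was sampled without and with TGF-β1 (Tgfb1 in the labels; 4 ng, volume not given, 24 h of incubation). The question set for the series is what the knockdown does to transcription in fibroblasts activated in this way. Each knockdown comparison sets 1 hairpin line against 1 control line, so an effect of MTHFD2 and any other difference between these lines cannot be told apart. For 3 shMTHFD2 samples the field for the genotype gives a different gene of a numbered series, so the sample titles were followed, and the extraction text speaks of another line and hairpin.

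NADPH oxidases pass electrons from NADPH across a membrane to oxygen. NOX4, unlike its relatives of phagocytes, needs no cytosolic activator, works once it is made and paired with p22phox (the product of CYBA), and releases mostly hydrogen peroxide; it is known in lung fibroblasts as a target of TGF-β signalling in the change to myofibroblasts. Superoxide dismutases turn superoxide into hydrogen peroxide: SOD1 in the cytosol, SOD2 in mitochondria and SOD3 outside the cell. Catalase in peroxisomes, glutathione peroxidases and peroxiredoxins then remove peroxide, the glutathione peroxidases with electrons from glutathione and the peroxiredoxins mostly with electrons from thioredoxin.

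Libraries held 18162738 to 22221927 counts. MTHFD2 itself stood at 58.7 and 57.0 CPM (on library sizes scaled by trimmed means) in shMock control and 14.9 and 18.7 in shMTHFD2 control. With TGF-β1 it stood at 255.6 and 257.2 in shMock and 93.6 and 91.7 in shMTHFD2. It was thus lower in the shMTHFD2 libraries at both conditions, by 1.79 and 1.47 on the log2 scale (edgeR adjusted p = 3.5e-07 and 8.7e-07), although TGF-β1 raised it in both lines. The smooth muscle actin gene ACTA2, a marker of activation, rose by a log2 of 3.66 in shMock and 3.23 in shMTHFD2 with TGF-β1 (edgeR adjusted p = 3.2e-13 and 1.1e-12), and CCN2 (1.61 and 1.50) and COL1A1 (1.10 and 1.32) rose too. Between the lines CCN2 was lower in shMTHFD2, at -0.99 without and -1.10 with TGF-β1 (edgeR adjusted p = 6e-06 and 3.8e-06), ACTA2 was at -0.18 without and -0.60 with it (edgeR adjusted p = 0.184 and 0.00015), and COL1A1 was at -0.18 and 0.04 (edgeR adjusted p = 0.305 and 0.843). Their part in the differences of NOX4 and the other genes between the lines was not tested. All 9 fibroblast markers checked were among the tested genes. Between the lines 1 of these 9 was higher in shMTHFD2 and 3 lower without TGF-β1, against 3.25% and 8.19% of all genes. With it 1 was higher and 1 lower, against 4.83% and 8.23%. THY1 was lower in both conditions, at -0.63 and -0.42, and PDGFRA higher in both, at 0.30 and 0.28. What these differences mean for the other genes was not tested. Of 5 epithelial markers 4 were at 0 in both libraries of each group, and PECAM1, CDH5 and CLDN5 of endothelium and CD3E of leukocytes were at 0 in all 8 libraries (summed levels of at most 2.31 CPM for 4 endothelial and 1.03 CPM for 4 leukocyte markers). Smooth muscle and pericyte markers summed to 96.4 to 163 CPM, with DES at 0, and most of this was NOTCH3 (75.3 to 92.0 CPM) and CNN1 (10.7 to 74.1 CPM). CNN1 rose with TGF-β1 in both lines, by 1.59 and 1.66. Of the 3 tested it alone was called between the lines, lower in shMTHFD2 at -0.85 without and -0.77 with TGF-β1 (edgeR adjusted p = 0.0032 and 0.00257). What this means for the other genes was not tested. In bulk RNA, fewer cells of a type and less RNA per cell cannot be told apart. The labels do not say whether the libraries of a group came from separate cultures, so p-values rest on a spread among libraries that may be only technical.

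NOX4 lies on chromosome 11 (chr11:89324356-89498187, minus strand; GRCh38, GENCODE 29; ENSG00000086991), and no exon of another annotated gene overlaps its own. RefSeq gives promoter windows for 9 of the 10 genes (not SOD1), from 250 bases before a start site to 50 after it (build GRCh38.p14). The 250 bases before 1 start site of NOX4, and before those of GPX1 and CAT, are shown because NOX4 moved up with TGF-β1 while the other two moved down. The capitals mark CAGAC or its reverse complement GTCTG, the short box that SMAD proteins, the transcription factors of TGF-β signalling, can bind. Sequences read 5′ to 3′ on the gene's strand.
NOX4, chr11:89491376-89491625, minus strand: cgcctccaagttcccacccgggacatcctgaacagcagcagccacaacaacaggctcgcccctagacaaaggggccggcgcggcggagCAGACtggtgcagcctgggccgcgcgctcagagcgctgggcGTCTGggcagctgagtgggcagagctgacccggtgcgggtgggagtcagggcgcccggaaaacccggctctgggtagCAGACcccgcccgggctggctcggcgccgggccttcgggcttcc
GPX1, chr3:49358354-49358603, minus strand: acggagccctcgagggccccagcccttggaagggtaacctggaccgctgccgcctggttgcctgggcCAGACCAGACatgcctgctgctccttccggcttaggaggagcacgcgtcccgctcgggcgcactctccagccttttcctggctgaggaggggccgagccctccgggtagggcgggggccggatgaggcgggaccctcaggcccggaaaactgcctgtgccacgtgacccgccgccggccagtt
CAT, chr11:34438684-34438933, plus strand: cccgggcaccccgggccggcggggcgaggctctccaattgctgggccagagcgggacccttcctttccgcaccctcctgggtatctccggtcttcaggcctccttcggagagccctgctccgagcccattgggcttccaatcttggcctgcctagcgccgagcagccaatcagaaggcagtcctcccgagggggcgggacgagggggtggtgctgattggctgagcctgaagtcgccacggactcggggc
The NOX4 stretch, most of the GPX1 stretch and the end of the CAT stretch lie inside the GENCODE 29 spans of their genes. NOX4 has the box 3 times, starting 162, 121 and 44 bases before the start site. GPX1 has it at 183 and 178 bases before its own, back to back, and CAT has none. The other 2 windows of NOX4 hold none either. Of all 35116 windows of the same length (300 bases, both strands searched), 45.3% hold at least 1 CAGAC and 2.86% hold at least 3. Among the genes described here, 6 of 9 with a window have a match, in 7 of 16 windows: NOX4, SOD2, SOD3, GPX1, GPX3 and GPX4. The 45.3% is a share of windows and not of genes, and some genes have several windows. Overlapping windows of GPX4 hold the same match, and the SOD2 match lies outside the GENCODE 29 span of that gene. Neither the AP-1 letters TGANTCA (7.71% of all windows) nor TGACNNNGC, the core of the antioxidant response element (13.3%), occur in any of the 16, whereas the GC box GGGCGG (45% of all windows) occurs in 13 of them, from 8 of the 9 genes. These are matches of letters and not measured binding sites.

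NOX4 RNA rose 23.5-fold and 26.0-fold with TGF-β1 in the shMock and the shMTHFD2 line. Its level was 1.93 and 2.31 CPM in shMock control, 51.2 and 48.6 CPM in that line with TGF-β1, 1.57 and 1.50 CPM in shMTHFD2 control and, in the same line with TGF-β1, 43.2 and 37.0 CPM. The 4 libraries with TGF-β1 lay far above the 4 without it, and in both conditions the shMTHFD2 libraries lay below the shMock ones. In raw counts this was 29 to 47 per library without TGF-β1 against 729 to 963 with it, so that NOX4 was above the test's minimum in every library. Adjusted p-values here and below are Benjamini-Hochberg values over all 13493 genes tested by edgeR's quasi-likelihood test in 1 fit of the 8 libraries, with a threshold of 0.05; SE is the standard error of a log2 fold change. The log2 fold change was 4.56 (SE 0.16, adjusted p = 1.1e-11) in shMock and 4.70 (SE 0.16, adjusted p = 1.9e-11) in shMTHFD2. By size of fold change NOX4 was the gene of rank 14 in shMock and of rank 13 in shMTHFD2, counted from the highest.

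The partner gene CYBA (ENSG00000051523; chr16:88643283-88651152, minus strand) had few counts in these libraries, and how the authors' counting treated it is not given in the sources used here. It had 12 and 9 counts in shMock control, 12 and 7 in shMock TGF-β1, 5 and 0 in shMTHFD2 control and 7 and 11 in shMTHFD2 TGF-β1, or 0 to 0.638 CPM. The groups overlapped except in the shMTHFD2 control libraries, which were the lowest, and the gene fell under the minimum for testing. The floor of 3 counts is equal to 0.135 to 0.172 CPM, and 1 of the 8 libraries lay below it. Fitted without the filter, CYBA had log2 fold changes of 0.10 (SE 0.95) and 1.89 (SE 1.09) with TGF-β1 in shMock and shMTHFD2, and edgeR adjusted p-values of 1 and 0.335. No exon of another gene overlaps CYBA in GENCODE 29.

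**Figure D1:**
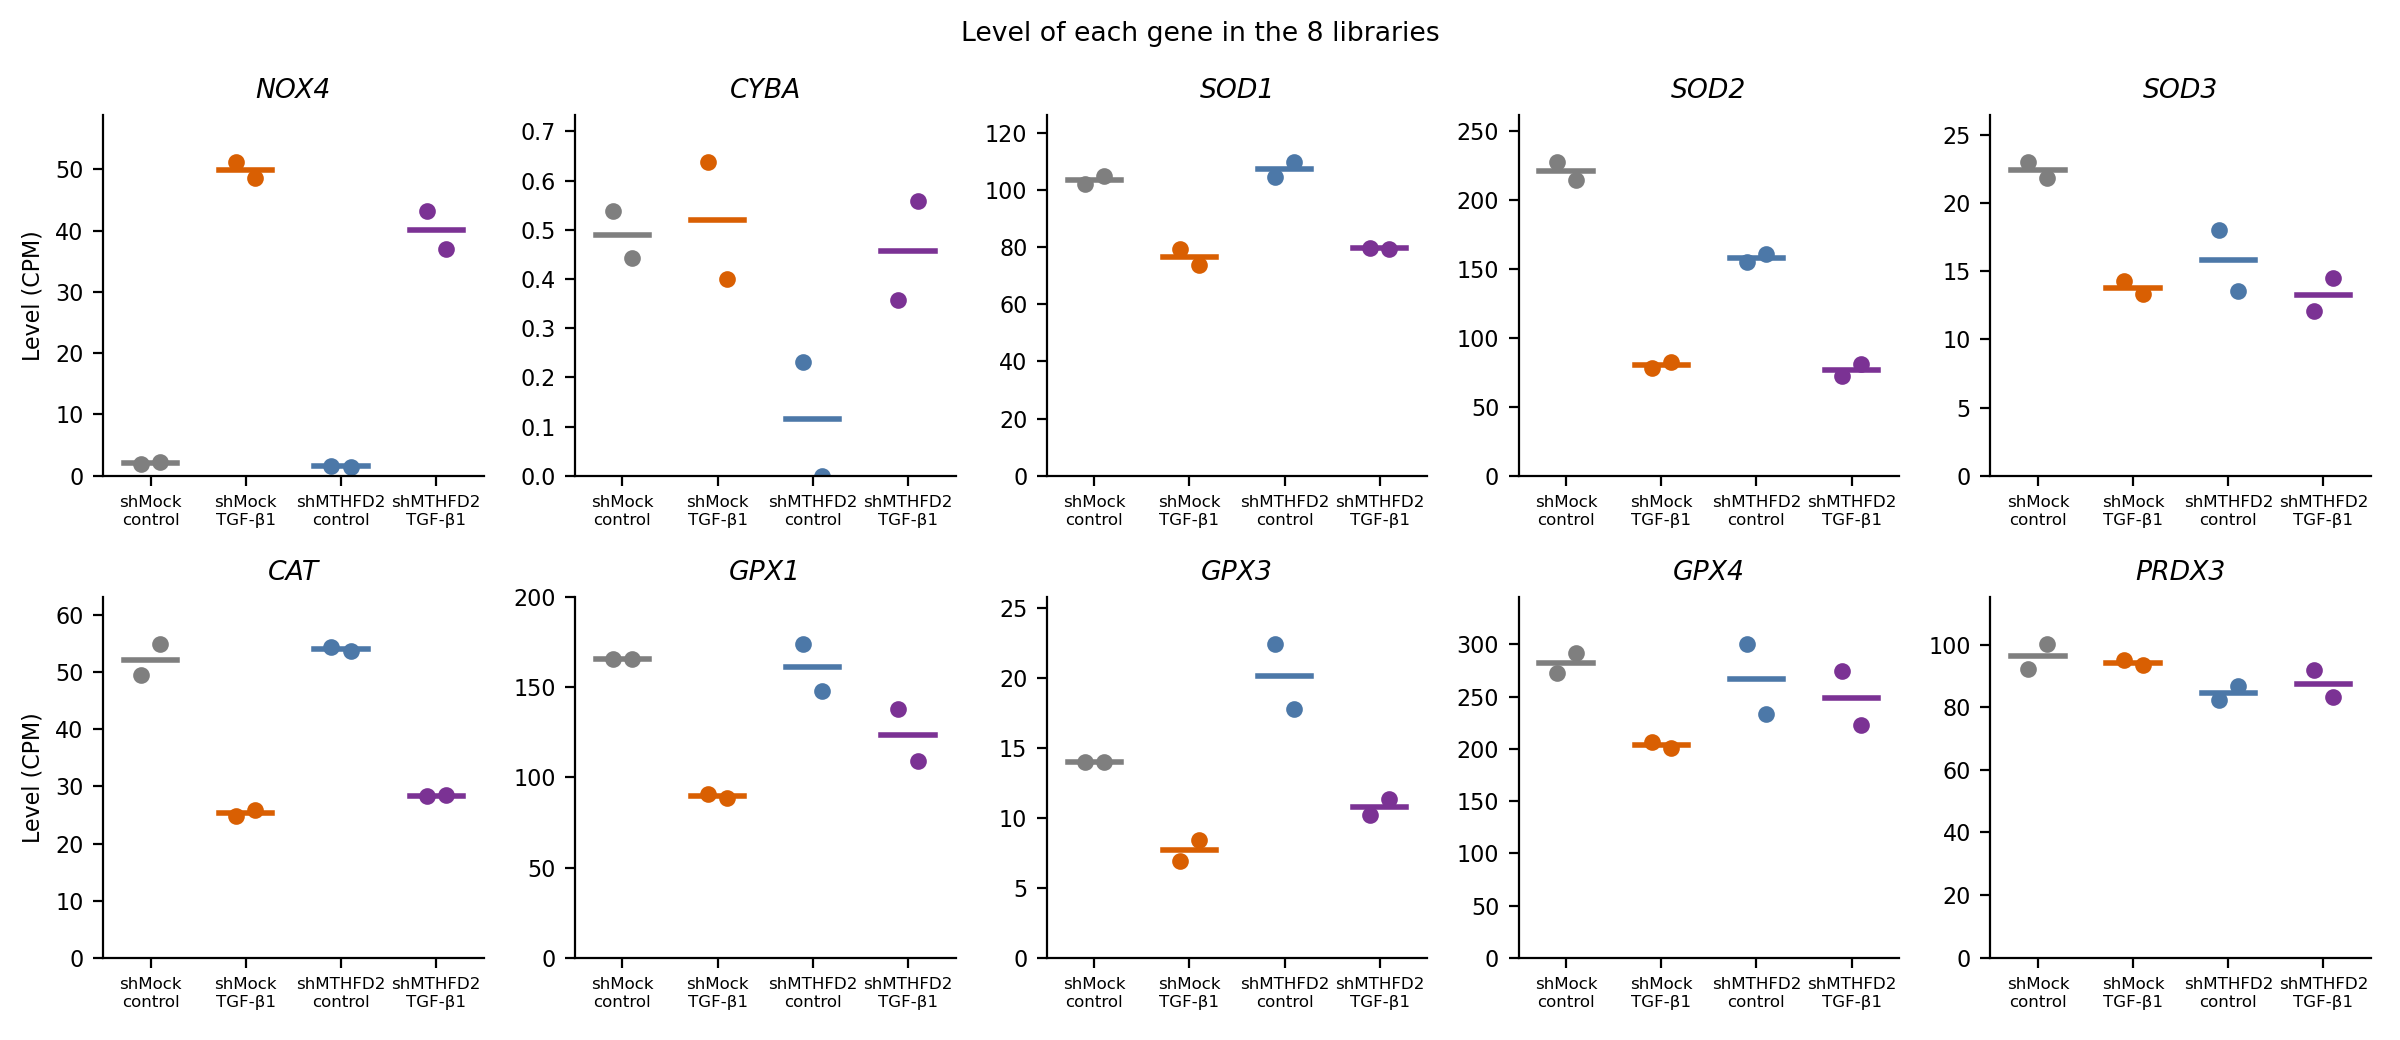
Level of each of the 10 genes (CPM on scaled library sizes, each y axis starting at 0) in the 4 groups; points are libraries and lines are the means of 2. NOX4 stands at 1.50 to 2.31 CPM without and 37.0 to 51.2 CPM with TGF-β1, SOD2, CAT and GPX3 are lower with it in both lines, and PRDX3 stays between 82.4 and 100.3 CPM.

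Of the superoxide dismutases, SOD1 and SOD2 fell with TGF-β1 in both lines and SOD3 in shMock. SOD2, the manganese enzyme of mitochondria (ENSG00000112096; chr6:159669057-159745186, minus strand), stood at 228 and 214 CPM in shMock control and 77.9 and 82.1 CPM in shMock TGF-β1. In shMTHFD2 it stood at 155 and 161 CPM in control and 72.5 and 81.2 CPM with TGF-β1. The 2 control groups were apart from each other, while the 2 groups with TGF-β1 overlapped. The response was -1.47 (SE 0.08, 2.76-fold lower, adjusted p = 2.7e-09) in shMock and -1.04 (SE 0.08, 2.05-fold lower, adjusted p = 1.6e-07) in shMTHFD2. Exons of SOD2 overlap those of WTAP on the other strand and of a second gene ID that also carries the name SOD2 on the same strand, so its counts are uncertain where the counting could split them.

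SOD1, the copper-zinc enzyme of the cytosol (ENSG00000142168; chr21:31659622-31668931, plus strand), changed less and by nearly the same amount in each line. Its level was 102.1 and 105 CPM in shMock control, 79.4 and 73.8 CPM in that line with TGF-β1, 104 and 109.8 CPM in shMTHFD2 control and 79.8 and 79.2 CPM with TGF-β1 in that line. The response was -0.43 (SE 0.08) in both lines, with adjusted p = 0.00052 in shMock and 0.00072 in shMTHFD2. SOD3, the secreted copper-zinc enzyme of the matrix (ENSG00000109610; chr4:24789912-24800842, plus strand), stood at 23.0 and 21.8 CPM in shMock control and 14.3 and 13.3 CPM in shMock TGF-β1, a change of -0.70 (SE 0.15, adjusted p = 0.00238). In shMTHFD2 its libraries overlapped, at 17.98 and 13.6 CPM in control and 12.1 and 14.5 CPM with TGF-β1, and the change of -0.25 (SE 0.16) did not pass the test (adjusted p = 0.286). With offsets for GC content and exon length the shMock change of SOD3 was -0.36 and no longer passed (adjusted p = 0.0701).

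Catalase and the glutathione peroxidases were lower with TGF-β1 in shMock, and CAT, GPX1 and GPX3 in shMTHFD2 as well. CAT (ENSG00000121691; chr11:34438925-34472062, plus strand) stood at 49.5 and 55.0 CPM in shMock control and 24.9 and 25.8 CPM in shMock TGF-β1. In shMTHFD2 it stood at 54.4 and 53.8 CPM in control and 28.2 and 28.5 CPM with TGF-β1. The control groups of the 2 lines overlapped. CAT fell by 1.04 on the log2 scale (SE 0.10, 2.06-fold, adjusted p = 6.1e-07) in shMock and by 0.93 (SE 0.09, 1.91-fold, adjusted p = 2.2e-06) in shMTHFD2.

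GPX1, the glutathione peroxidase of the cytosol and mitochondria (ENSG00000233276; chr3:49357171-49358600, minus strand; typed as a polymorphic pseudogene in GENCODE 29), stood at 165 and 165 CPM in shMock control and 90.9 and 88.7 CPM in shMock TGF-β1. In shMTHFD2 it was more spread, at 174 and 148 CPM in control and 138 and 109 CPM with TGF-β1. It fell by 0.88 on the log2 scale (SE 0.11, 1.84-fold, adjusted p = 1.2e-05) in shMock and by 0.38 (SE 0.11, 1.31-fold, adjusted p = 0.0143) in shMTHFD2. The call in shMTHFD2 was lost without control library 1 of that line (-0.28, adjusted p = 0.123) and without its TGF-β1 library 2 (-0.22, adjusted p = 0.213). Its processed copy GPX1P1 had 14 to 75 counts per library against 1548 to 3766 for GPX1.

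GPX3, the secreted plasma form (ENSG00000211445; chr5:151020438-151028993, plus strand), stood at 14.0 and 14.0 CPM in shMock control, 6.92 and 8.42 CPM in that line with TGF-β1, 22.4 and 17.8 CPM in shMTHFD2 control and 10.2 and 11.3 CPM in shMTHFD2 TGF-β1. Both shMTHFD2 groups lay above the shMock group of the same condition. The response was -0.87 (SE 0.17, adjusted p = 0.00089) in shMock and -0.90 (SE 0.16, adjusted p = 0.00056) in shMTHFD2. GPX4, which reduces lipid peroxides in membranes (ENSG00000167468; chr19:1103926-1106791, plus strand), stood at 273 and 291 CPM in shMock control and 206 and 201 CPM in shMock TGF-β1, a change of -0.47 (SE 0.12, adjusted p = 0.00512) that was -0.20 with GC and length offsets (adjusted p = 0.0828). In shMTHFD2 the GPX4 libraries overlapped, at 301 and 234 CPM in control and 275 and 223 CPM with TGF-β1, with a change of -0.10 (SE 0.11, adjusted p = 0.578). PRDX3, the peroxiredoxin of mitochondria (ENSG00000165672; chr10:119167703-119178833, minus strand), had overlapping libraries and did not pass in either line. It stood at 92.3 and 100.3 CPM in shMock control, 95.1 and 93.4 CPM in that line with TGF-β1, 82.4 and 86.8 CPM in shMTHFD2 control and 91.8 and 83.3 CPM in shMTHFD2 TGF-β1 (log2 fold changes -0.03 and 0.05, SE 0.08 each, adjusted p = 0.809 and 0.73).

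Counted together, 1 of the 9 tested genes (NOX4) was higher and 7 were lower with TGF-β1 in shMock, where 35.4% of all tested genes were called, 17.3% higher and 18.1% lower (11.6% and 29.1% with library totals alone as scaling). In shMTHFD2 1 was higher and 5 were lower, against 23.8% of all genes called, 12.8% higher and 11.0% lower (9.06% and 18.2% with library totals). Because the genes were chosen with earlier results of these data known, these shares are a description and no test. The median log2 fold change of the 9 was -0.70 in shMock and -0.38 in shMTHFD2, beside -0.02 and -0.01 over all tested genes. With offsets for GC content and exon length the median of the 9 was -0.36 in each line. The calls in shMock were then 1 higher and 5 lower, SOD3 and GPX4 being lost, and the shares of all genes with these offsets are not given here. The groups did not overlap for the same 8 and 6 genes that were called; of all genes, 32.0% were higher and 36.0% lower without overlap in shMock, and 29.3% and 30.3% in shMTHFD2. With library totals alone as scaling the median of all genes was -0.16 in shMock and -0.12 in shMTHFD2, and each of these called genes kept its direction and its call. Leaving out any 1 library left 8 calls in shMock and 5 or 6 in shMTHFD2.

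**Figure D2:**
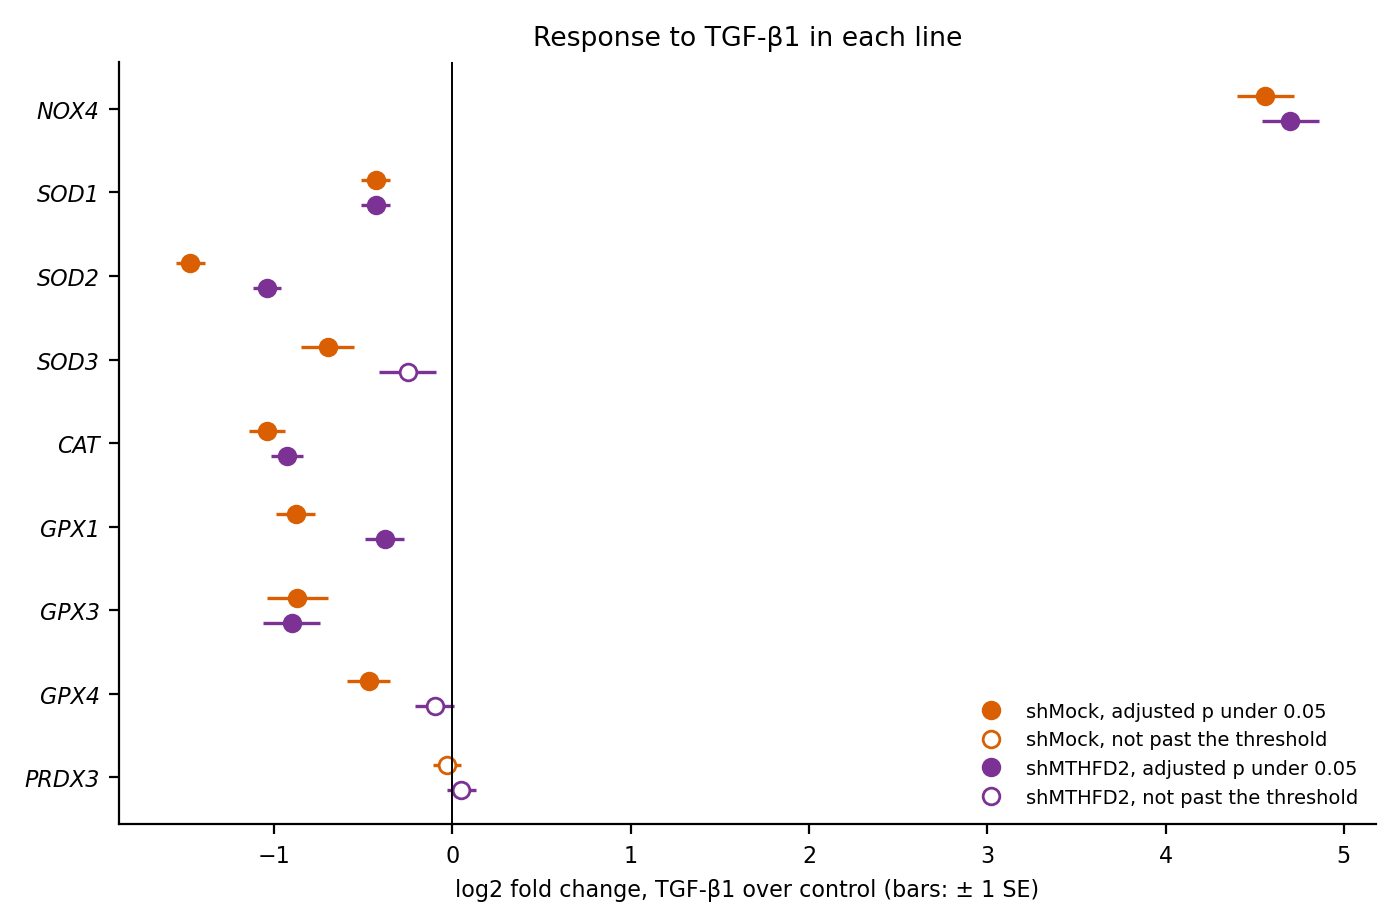
Log2 fold change of TGF-β1 over control for the 9 tested genes in shMock and shMTHFD2, with bars of 1 SE; filled points have an edgeR adjusted p under 0.05. NOX4 stands alone on the right at 4.56 and 4.70, and 7 genes in shMock and 5 in shMTHFD2 have filled points left of 0.

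The order of the genes by level, which needs the exon length, put NOX4 near the bottom without TGF-β1 and in the middle with it. In shMock control the mean level per kb of exon (CPM per kb, n = 2) ran from GPX4 at 139.7 ± 6.48 (SD) through GPX1 at 116, SOD1 at 51.3 ± 1.01, PRDX3 at 28.2 ± 1.64, CAT at 14.5 ± 1.09, SOD2 at 13.4 ± 0.579, SOD3 at 10.5 ± 0.399 and GPX3 at 4.42 to NOX4 at 0.348 ± 0.0447 and CYBA at 0.146 ± 0.0200. CAT and SOD2 overlapped in their 2 libraries, and the other neighbours did not. In shMock TGF-β1 NOX4 stood at 8.19 ± 0.302 CPM per kb, above CAT (7.07 ± 0.184), SOD3 (6.47 ± 0.322), SOD2 (4.85 ± 0.180) and GPX3 (2.42 ± 0.336), with no overlap between these neighbours. In shMTHFD2 TGF-β1 it stood at 6.58 ± 0.722, below CAT at 7.90 ± 0.0563 and overlapping SOD3 at 6.24 ± 0.792. In shMTHFD2 control NOX4 was at 0.252 ± 0.00880 CPM per kb, between GPX3 (6.36 ± 1.03) and CYBA (0.0344 ± 0.0487), and there SOD3 (7.41 ± 1.47) and GPX3 overlapped. The annotated SOD2 gene model is long (16493 exon bases), and its level per kb rests on that length.

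Between the lines, without TGF-β1, 1 of the 9 genes was higher in shMTHFD2 (GPX3) and 2 were lower (SOD2 and SOD3), where 11.4% of all genes were called, 3.25% higher and 8.19% lower (5.6% and 5.48% with library totals). The values by library are those given above. SOD2 had a log2 difference of -0.48 (SE 0.08, 1.40-fold, adjusted p = 0.00119), and this call held without any 1 library. GPX3 was higher by 0.53 (SE 0.16, 1.44-fold, adjusted p = 0.0425); the adjusted p was 0.148 without shMock control 1, 0.182 without shMock control 2 and 0.266 without shMTHFD2 control 1 (0.36). SOD3 stood at -0.50 (SE 0.15, 1.42-fold, adjusted p = 0.0443), which was lost without shMock control 1 (0.18), shMock control 2 (0.135) or shMTHFD2 control 2 (0.397), with DESeq2 (0.0536), with library totals (0.0805) and with GC and length offsets (0.122), all adjusted p-values. NOX4 was at -0.46 (SE 0.22, adjusted p = 0.219) and PRDX3 at -0.19 (SE 0.08, adjusted p = 0.174), both below shMock in all libraries and not past the threshold. SOD1, CAT, GPX1 and GPX4 lay between -0.08 and 0.05 with overlapping libraries. The median of the 9 was -0.08, beside -0.01 over all genes.

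With TGF-β1, 1 of the 9 was higher in shMTHFD2 (GPX1) and none was lower by edgeR, where 13.1% of all genes were called, 4.83% higher and 8.23% lower (9.92% and 5.31% with library totals). At an unadjusted p under 0.05 edgeR had 1 lower gene, NOX4, and 3 higher ones, GPX1, GPX3 and GPX4. The share of all genes at that unadjusted cutoff is not given here. At the adjusted threshold DESeq2 called 1 higher and 0 lower. GPX1 was higher by 0.46 (SE 0.11, 1.37-fold, adjusted p = 0.0117), and the call was lost without shMock TGF-β1 library 1 (0.48, adjusted p = 0.0506) or shMTHFD2 TGF-β1 library 1 (0.27, adjusted p = 0.197). NOX4 was at -0.32 (SE 0.12, adjusted p = 0.0876): the shMTHFD2 libraries at 43.2 and 37.0 CPM both lay below the shMock libraries at 51.2 and 48.6 CPM. Over its alternatives the adjusted p ran from 0.0475 with limma-voom, where it passed, to 0.414 without shMTHFD2 TGF-β1 library 2 (-0.21). GPX3 was at 0.49 (SE 0.17, adjusted p = 0.0748) and GPX4 at 0.29 (SE 0.12, adjusted p = 0.118), both with shMTHFD2 above shMock in all libraries. Scaled by library totals these 2 passed, at 0.58 (adjusted p = 0.0386) and 0.38 (adjusted p = 0.0444), with the median of all genes at 0.10 instead of 0.01, and GPX4 passed without the filter on low counts (adjusted p = 0.019). CAT, at 0.16 (SE 0.10, adjusted p = 0.315), was higher without overlap, so that 4 genes were higher and 2 lower without overlap, against 26.6% and 27.5% of all genes. Without TGF-β1 these counts were 1 and 4, against 25.2% and 30.1%.

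**Figure D3:**
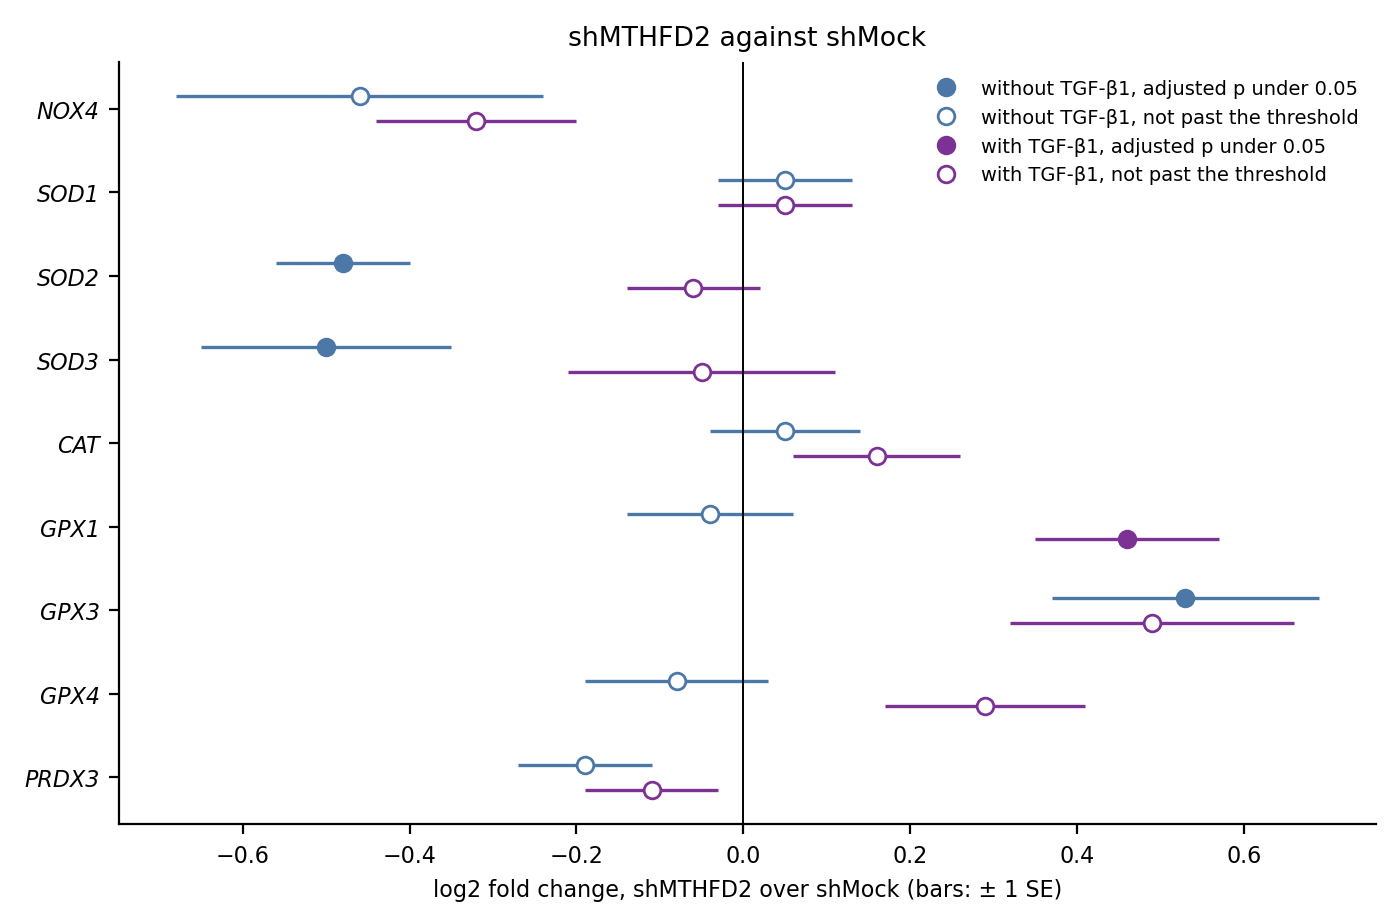
Log2 difference of shMTHFD2 over shMock for the 9 tested genes, without and with TGF-β1, with bars of 1 SE; filled points have an edgeR adjusted p under 0.05. Without TGF-β1 the filled points are GPX3 at 0.53, SOD2 at -0.48 and SOD3 at -0.50, and with it GPX1 at 0.46.

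Whether the 2 lines responded differently to TGF-β1 was tested as the interaction, the response in shMTHFD2 minus that in shMock. None of the 9 passed in edgeR, where 12 of all genes did (0.0889%, with 0.0371% higher and 0.0519% lower), and none passed in DESeq2 or limma-voom. At an unadjusted p under 0.05 there were 3, all higher: SOD2 at 0.43 (SE 0.12, unadjusted p = 0.00248, adjusted p = 0.186), GPX1 at 0.50 (SE 0.15, unadjusted p = 0.00478, adjusted p = 0.226) and GPX4 at 0.37 (SE 0.16, unadjusted p = 0.0404, adjusted p = 0.378). For these 3 genes the fall with TGF-β1 was thus smaller in shMTHFD2, by differences that did not pass over all genes. The share of all genes at that unadjusted cutoff is not given here, so the count of 3 is a description only. SOD2 passed with GC and length offsets (0.62, adjusted p = 0.0333) and GPX1 without the filter on low counts (0.49, adjusted p = 0.0179). With those offsets GPX1 was at 0.21 (adjusted p = 0.661) and GPX4 at 0.12 (adjusted p = 0.837). SOD3 was at 0.45 (SE 0.22, adjusted p = 0.416), so its call in shMock and not in shMTHFD2 does not show that the lines differ. NOX4 was at 0.14 (SE 0.25, adjusted p = 0.851), CAT at 0.11 (SE 0.13, adjusted p = 0.763), PRDX3 at 0.08 (SE 0.12), SOD1 at 0.00 (SE 0.11) and GPX3 at -0.04 (SE 0.23). The median of the 9 was 0.14, beside 0.02 over all genes.

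The other genes of the pathway were put in 5 lists by role. Of 15 other NADPH oxidase genes and regulators 3 were abundant enough to test. NOX1, NOX3, NOX5, CYBB, DUOX1, DUOX2, DUOXA1, DUOXA2, NCF1, NCF4, NOXO1 and NOXA1 had at most 23 counts in a library, so NOX4 was the only catalytic oxidase of the family that was tested. With TGF-β1 in shMock none of the 3 was higher by edgeR, DESeq2 or limma-voom, also at an unadjusted p under 0.05 in edgeR, and 2 were lower (median -0.25). Of all genes, 18.1% were lower there. RAC2, a small GTPase that activates the phagocyte oxidase, was at -1.31 (SE 0.41, adjusted p = 0.02). Its level was close to the minimum for testing, at 3.27 and 2.21 CPM in shMock control and 1.17 and 1.03 CPM with TGF-β1. POLDIP2, which binds the NOX4 complex, was at -0.25 (SE 0.08, adjusted p = 0.0252). Both calls hung on single libraries: RAC2 was lost without shMock control 1 or either TGF-β1 library, and POLDIP2 without any of the 4 shMock libraries, which left 0 to 1 lower. The POLDIP2 call was also lost with GC and length offsets (edgeR adjusted p = 0.533) and without the filter on low counts (edgeR adjusted p = 0.0585). In shMTHFD2 none of the 3 passed (edgeR, also at an unadjusted p under 0.05, and DESeq2 and limma-voom; median -0.14). With library totals alone as scaling 3 were lower in shMock and 1 in shMTHFD2, where 29.1% and 18.2% of all genes were. Between the lines 11.4% of all genes were called without TGF-β1 and 13.1% with it. RAC1, a ubiquitous GTPase that activates other NADPH oxidases, was the 1 gene of the 3 called between the lines without TGF-β1 (median of the 3 -0.40): it was lower in shMTHFD2, at -0.42 (SE 0.08, adjusted p = 0.00201), with 242 and 246 CPM against 324 and 329.8 CPM in shMock. With TGF-β1 it was again the 1 gene called (median of the 3 -0.01), at -0.33 (SE 0.08, adjusted p = 0.01; 0.07 without shMock TGF-β1 library 1, 0.0976 without shMTHFD2 TGF-β1 library 1).

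Other peroxidases moved in both directions. With TGF-β1 3 of the 7 tested were higher and 2 lower in shMock (median 0.12), where 35.4% of all genes were called, and 2 were higher and 1 lower in shMTHFD2 (median 0.16), where 23.8% were. In shMock the count was 4 higher and 1 lower with GC and length offsets (median 0.40) and 1 higher and 2 lower with library totals (median -0.02). With library totals 11.6% of all genes were higher and 29.1% lower, and the shares with the offsets are not given here. The endoplasmic reticulum peroxidase GPX8 rose by a log2 of 0.81 (SE 0.08, adjusted p = 1.7e-06) in shMock, from 158 and 164 CPM to 299.97 and 264 CPM, and by 0.57 (SE 0.08, adjusted p = 8.4e-05) in shMTHFD2, from 138 and 145 CPM to 209.98 and 209.5 CPM. GPX7, also of that compartment, was at 0.48 in shMock (adjusted p = 0.00942; lost without shMock control 1, 0.0894, or TGF-β1 library 2, 0.0572) and at 0.68 in shMTHFD2 (adjusted p = 0.00125). The cytosolic peroxiredoxin PRDX1, whose exons overlap MMACHC on the other strand, fell by 0.50 (adjusted p = 0.00012) and 0.40 (adjusted p = 0.00106). PRDX2 was at -0.25 in shMock (adjusted p = 0.0397), a call lost without any of 6 libraries and with DESeq2. It was also lost with GC and length offsets (edgeR adjusted p = 0.632), median-of-ratios factors (0.055) and no filter (0.0539). Between the lines 1 of the 7 was lower without TGF-β1 (median -0.14) and 2 with it (median -0.06). Of all genes, 8.19% and 8.23% were lower. GPX8 was lower in shMTHFD2 with TGF-β1 (-0.43, SE 0.08, adjusted p = 0.003). PRDX6 was at -0.34 without (adjusted p = 0.0129) and -0.31 with TGF-β1 (adjusted p = 0.0194); the first was lost without any of the 4 control libraries and the second without either shMock TGF-β1 library or shMTHFD2 TGF-β1 library 2. Without shMock control 1 the TGF-β1 count in shMock was 1 higher and 1 lower, and without shMock TGF-β1 library 2 it was 2 higher and 1 lower.

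Of the genes of thioredoxin and glutathione supply most were lower with TGF-β1: 1 of 15 was higher and 12 were lower in shMock (median -0.48), where 17.3% of all genes were higher and 18.1% lower. In shMTHFD2 1 was higher and 9 were lower (median -0.55), against 12.8% and 11.0% of all genes. The lower genes of both lines include TXNIP, an inhibitor of thioredoxin, at -0.45 and -0.74 (edgeR adjusted p = 0.00028 and 2.4e-06). Thioredoxin reductase 1, TXNRD1, went from 878 and 812 CPM to 331 and 332 CPM in shMock (-1.35, SE 0.08, adjusted p = 3.2e-09) and from 729.8 and 738 CPM to 328 and 337 CPM in shMTHFD2 (-1.14, SE 0.08, adjusted p = 2.6e-08). In shMock the glutaredoxin GLRX fell from 109.7 and 109.7 CPM to 50.1 and 46.1 CPM (-1.19, SE 0.09, adjusted p = 3.8e-08). In shMTHFD2 the cystine transporter SLC7A11, whose exons overlap an antisense gene, fell from 382 and 429 CPM to 178 and 173 CPM (-1.21, SE 0.10, adjusted p = 1.3e-07). Both genes fell in both lines: GLRX was at -0.77 in shMTHFD2 (edgeR adjusted p = 7.9e-06) and SLC7A11 at -0.96 in shMock (edgeR adjusted p = 1.4e-06). Neither passed in the interaction (edgeR adjusted p = 0.219 and 0.457). The exception was GCLC, the catalytic subunit of the first enzyme of glutathione synthesis, which rose by a log2 of 0.79 (adjusted p = 1.4e-06) in shMock and 0.69 (adjusted p = 7.7e-06) in shMTHFD2; annotated transcripts overlap it on both strands. Between the lines without TGF-β1 3 of the 15 were higher in shMTHFD2 and 1 lower (median -0.06). Of all genes, 3.25% were higher and 8.19% lower there. The thioredoxin inhibitor TXNIP was higher (0.45, SE 0.07, adjusted p = 0.00115) and GLRX lower (-0.90, SE 0.08, adjusted p = 1.1e-05, 56.1 and 61.3 CPM against 109.7 and 109.7). SLC7A11 stood at 0.40 (adjusted p = 0.0117), lost without shMock control 2 (0.169) or shMTHFD2 control 2 (0.106), and either left 1 of the 15 higher. With TGF-β1 GLRX was again lower (-0.48, SE 0.09, adjusted p = 0.00245), and thioredoxin, TXN, stood at 0.27 (adjusted p = 0.0383), a call lost without any library other than shMock TGF-β1 library 2 (0.0519 to 0.189); the median was 0.13.

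Of the genes that supply copper and selenium to the dismutases and peroxidases, 1 of 9 was higher and 2 were lower with TGF-β1 in shMock (median -0.03), a share near the 35.4% called among all genes, and in shMTHFD2 none passed (edgeR, also at an unadjusted p under 0.05, DESeq2 and limma-voom; median -0.05). ATP7A, which pumps copper into the secretory route where SOD3 is loaded, stood at 0.52 in shMock (SE 0.11, adjusted p = 0.00259), with 28.97 and 26.1 CPM in control and 40.9 and 37.9 CPM with TGF-β1; its exons overlap PGK1. CCS, the copper chaperone of SOD1, stood at -0.42 (adjusted p = 0.0256, lost without either control or TGF-β1 library 1 of shMock) and the selenophosphate synthetase SEPHS2 at -0.24 (adjusted p = 0.046, lost without any of 7 libraries and with DESeq2). Neither call held with GC and length offsets (edgeR adjusted p = 0.31 and 0.204). SEPHS2 was also lost with median-of-ratios factors, limma-voom, no filter and only the groups compared. Without either shMock control library no gene of this list was lower. Between the lines ATP7A stood at -0.43 with TGF-β1 (SE 0.11, adjusted p = 0.0243; lost without shMock TGF-β1 library 1, 0.151, or shMTHFD2 TGF-β1 library 1, 0.164); without TGF-β1 none passed (1 higher and 1 lower at an unadjusted p under 0.05 in edgeR, 0 in DESeq2 and limma-voom), and SEPHS2 was at -0.17. Without shMTHFD2 control 1 there was 1 higher gene in that comparison, and without shMTHFD2 TGF-β1 library 1 there was 1 lower gene with TGF-β1 in shMTHFD2.

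Of 11 other enzymes that make superoxide or peroxide, 7 were tested (not XDH, MAOA, MAOB or PRODH), and 1 was higher and 1 lower with TGF-β1 in each line (medians 0.01 and -0.13). Among all genes 35.4% were called in shMock and 23.8% in shMTHFD2. Aldehyde oxidase, AOX1, fell from 13.3 and 14.4 CPM to 3.62 and 3.38 CPM in shMock (-1.98, SE 0.21, adjusted p = 3.1e-06) and from 8.87 and 8.56 CPM to 3.47 and 2.49 CPM in shMTHFD2 (-1.55, SE 0.22, adjusted p = 6.1e-05). The peroxisomal oxidase ACOX3 rose by a log2 of 0.59 (SE 0.11) in both lines (adjusted p = 0.00089 and 0.00103). Without shMock control 1 the count in shMock was 2 higher and 1 lower. AOX1 was at -0.66 between the lines without TGF-β1 (adjusted p = 0.0388), a call lost without any of the 4 control libraries (0.112 to 0.238). With TGF-β1 none passed (edgeR, also at an unadjusted p under 0.05, DESeq2 and limma-voom), and ERO1A, the oxidase that feeds electrons from disulphide formation to oxygen, was at 0.04. In the interaction none of the 41 tested genes of the 5 lists passed in edgeR, DESeq2 or limma-voom. At an unadjusted p under 0.05 in edgeR 3 were higher and 2 lower, a count given without the share of all genes. RAC1 was at 0.09, PRDX1 at 0.10, TXNRD1 at 0.21, SEPHS2 at 0.20 and ERO1A at -0.15.

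**Figure D4:**
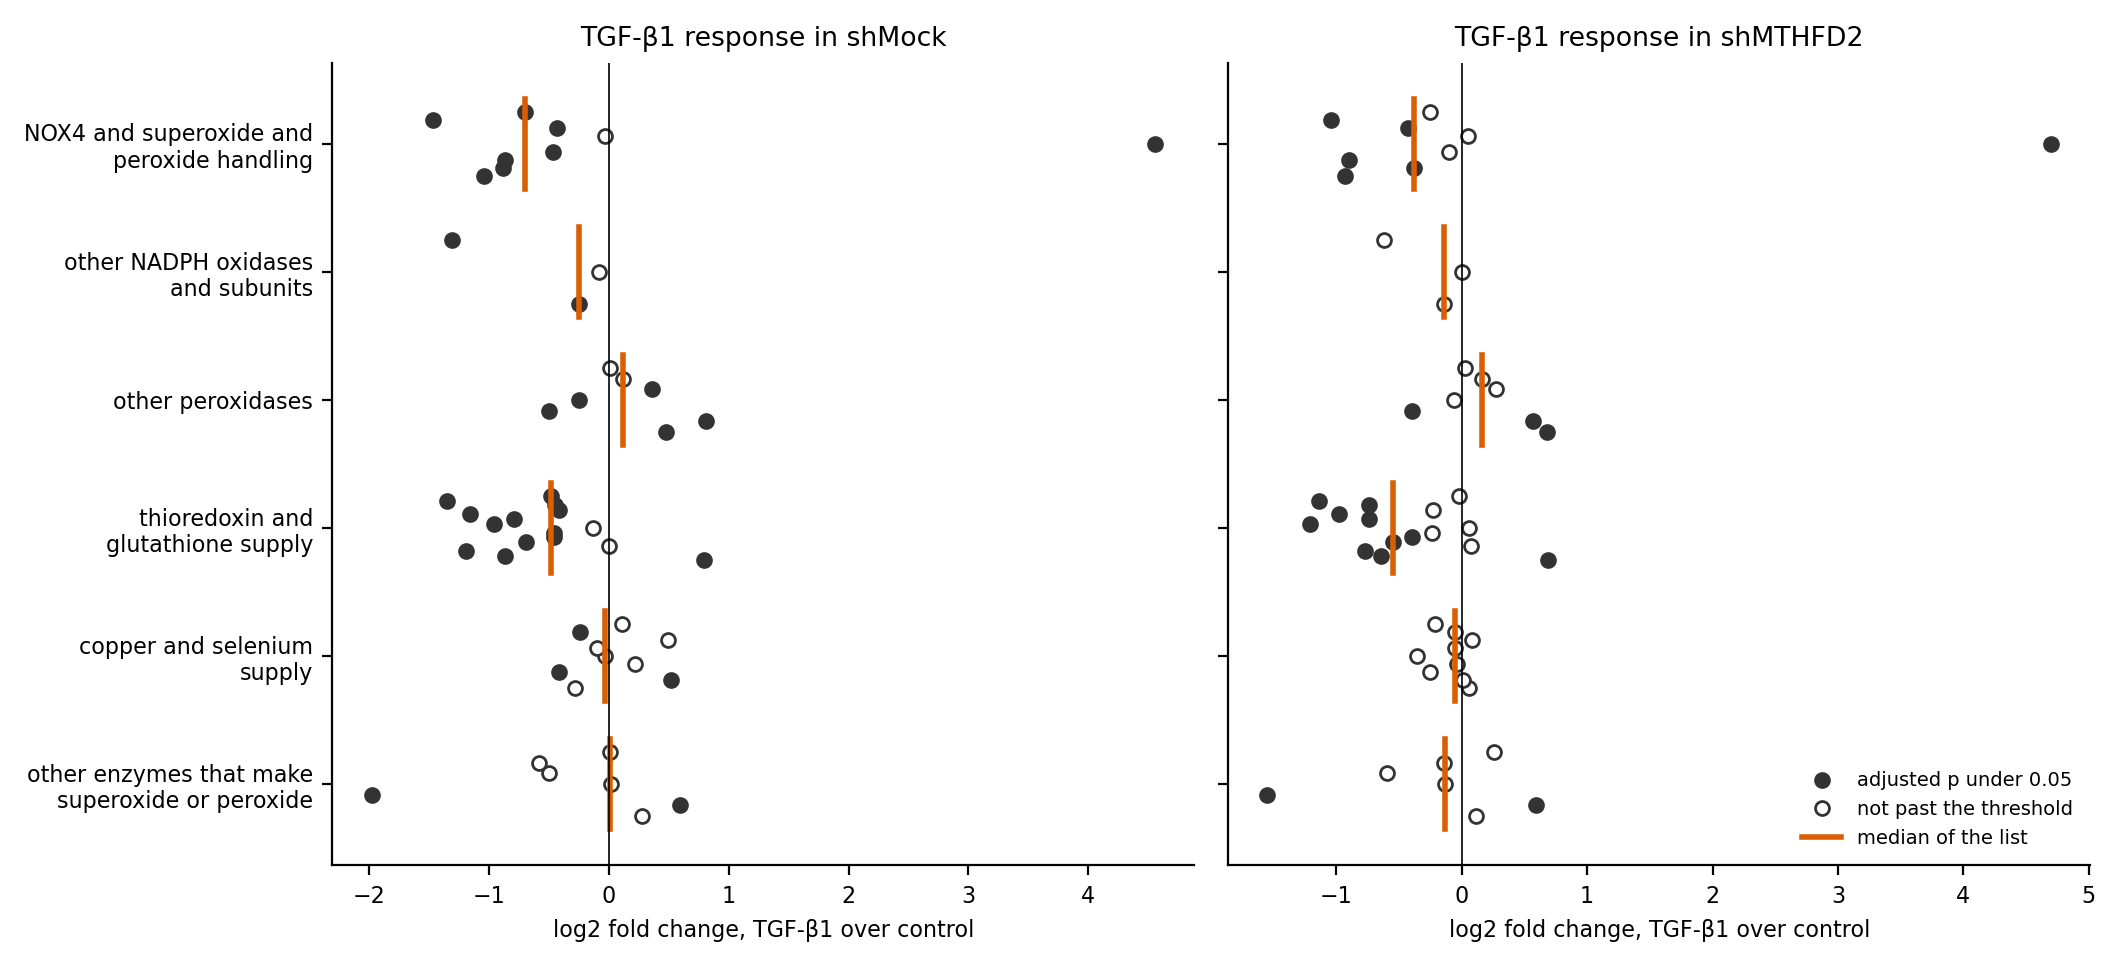
Log2 fold change of TGF-β1 over control for every tested gene of the 10 chosen genes and of the 5 other lists, in shMock (left) and shMTHFD2 (right); filled points have an edgeR adjusted p under 0.05 and the vertical marks are list medians. NOX4 stands apart at 4.56 and 4.70, and the medians of the chosen genes (-0.70 and -0.38) and of thioredoxin and glutathione supply (-0.48 and -0.55) lie left of 0; with GC and length offsets the former are -0.36 in each line.

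The 5 protein-coding genes whose log2 CPM tracked NOX4 most closely over the 8 libraries, among 12047 ranked, were TGFBI (Pearson r = 0.9990), SERPINE2 (0.9989), LMCD1 (0.9985), FRMD5 (0.9985) and NHERF1 (0.9982). The libraries share a split into 4 with and 4 without TGF-β1, so these values describe that split above all and carry no test. TGFBI, a matrix protein induced by TGF-β, went from 1496 ± 12.6 (SD, n = 2) to 6730 ± 339 CPM in shMock and from 1315 ± 57.6 to 5786 ± 28.8 CPM in shMTHFD2, and SERPINE2, a protease inhibitor, from 624 ± 22.4 to 3960 ± 219 and from 506 ± 29.04 to 3371 ± 17.1 CPM. LMCD1, a LIM-domain protein whose exons overlap an antisense transcript, had the largest response of the 5, at 5.15 in shMock and 5.22 in shMTHFD2 (edgeR adjusted p = 1.5e-12 and 3.8e-12). FRMD5 rose by 2.54 and 2.76 and NHERF1, whose exons overlap 2 other annotated genes, by 2.25 and 2.55. Between the lines with TGF-β1 LMCD1 was at -0.46 (adjusted p = 0.0102), a call lost without shMock TGF-β1 library 1 or shMTHFD2 TGF-β1 library 2. TGFBI was at -0.22 and SERPINE2 at -0.23 (edgeR adjusted p = 0.0989 and 0.0837), and both passed with DESeq2 (adjusted p = 0.0102 and 0.0109). FRMD5 was at -0.02 and NHERF1 at -0.07, beside -0.32 for NOX4. Without TGF-β1 SERPINE2 was at -0.30 (edgeR adjusted p = 0.0319), a call lost under 7 alternatives.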

How the data were processed

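RNA of 8 libraries was measured. The table as deposited by the authors is named for FPKM, yet holds whole-number counts per Ensembl gene (60666 IDs). Its column totals differ between libraries, and it was used as counts. Per the submitters' processing notes, STAR 2.7.1a, DESeq2 1.32.0 and the build GRCh38 were used; for their roles, the counter, its annotation and its use of strand, the entry is: not given in the sources used here. Groups were taken from the sample titles.

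Counts were fitted with edgeR 4.0.16 (R 4.3.3) by the quasi-likelihood test, with trimmed-mean scaling (factors 0.914 to 1.07), a minimum mean of 1 CPM (13493 genes, holding 99.8 to 99.9% of counts), a mean per group and 4 residual degrees of freedom. The common biological coefficient of variation was 8.79%. SE was derived from the fold change and F statistic and is approximate. Counts at an unadjusted p under 0.05 are given without the share of all genes at that cutoff and are descriptions only. A permutation of 2 against 2 libraries cannot go below p = 0.333. Floors of 3 counts cover counting error only. Symbols came from the supplied name table, and from GENCODE 29 for 213 IDs, SOD2 among them; GENCODE 29 gave positions, overlaps, GC content and exon length. Promoter windows came from RefSeq.

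Alternatives were median-of-ratios factors, library totals, DESeq2 1.42.0, limma-voom (limma 3.58.1), no filter or 5 CPM, only the groups compared, a replicate block, GC and length offsets, and leaving out each library. Named by rule were the 10 genes, MTHFD2, 3 activation markers, up to 2 higher and 2 lower called genes per list and comparison (or, with none, the most abundant), and the 5 genes most correlated with NOX4. Members and lists were chosen with earlier results of these data known. A few genes of the lists are not reported here and enter no list's count or median.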

Additional observations from a re-analysis of the deposited data

How the results depend on the processing

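Of 756 values of the 9 tested genes under alternatives, 704 kept their direction and their side of the threshold. Another 31 changed sign, all near 0 and not called in either fit, 15 lost a call and 6 gained one. The number of genes called between the lines with TGF-β1 was 1, and became 3 with library totals, 2 with limma-voom and 2 without the filter; leaving out 1 library gave 0 to 1. Without TGF-β1 it was 3, and leaving out 1 library gave 1 to 3. In the TGF-β1 response of shMock it was 8, and became 6 with the offsets for GC and length. In the interaction it was 0, and became 1 without the filter and 1 with those offsets. Over all genes the interaction had 12 calls, against 105 with DESeq2, 321 without the filter, 36 at 5 CPM, 21 with those offsets and 3 to 185 without 1 library. Without 1 library 638 to 1674 genes were called between the lines without TGF-β1 (1543 with all) and 845 to 1820 with it (1762 with all). Of the other lists, thioredoxin and glutathione supply had 1 higher gene between the lines with TGF-β1, 5 with the offsets and 3 with library totals. Of all genes, 4.83% were higher there, and 9.92% with library totals. Other peroxidases had 3 higher genes in shMock, 1 with library totals and 4 with the offsets. The shares of all genes called with the offsets in these comparisons are not given here, so a shift of a list and one of all genes cannot be told apart.

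Sign changes were as follows. SOD1 in the interaction was -0.01 with median-of-ratios factors, -0.01 with DESeq2, -0.00 without the filter, -0.03 at 5 CPM, -0.11 with the offsets and -0.07 to 0.06 without 1 library. With library totals PRDX3 in shMTHFD2 was -0.07, GPX1 between the lines without TGF-β1 0.03, and SOD2 and SOD3 with TGF-β1 0.03 and 0.04. With the offsets GPX1 and GPX4 between the lines without TGF-β1 were 0.07 and 0.01, and SOD2 with TGF-β1 0.04. Leaving out 1 library, PRDX3 ran from -0.09 to 0.03 in shMock, -0.03 to 0.12 in shMTHFD2 and -0.02 to 0.15 in the interaction, GPX4 from -0.28 to 0.07 in shMTHFD2 and -0.26 to 0.10 between the lines without TGF-β1, CAT and GPX1 there from -0.02 to 0.13 and -0.15 to 0.08, SOD2 and SOD3 with TGF-β1 from -0.14 to 0.01 and -0.19 to 0.06, and GPX3 in the interaction from -0.22 to 0.11. The cause was not tested.

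Same-numbered libraries did not deviate together (correlations of -0.0203 to 0.0687). With 2 libraries a group and no word on it in the labels, this cannot decide whether same-numbered libraries shared a culture or batch. With the replicate block the counts of these genes stayed at 8, 6, 3, 1 and 0. CYBA was too low for a test, and 2 libraries a group limit every comparison.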
